A study of Homo sapiens with 6 samples.

Results

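The 10 genes described here code for small nuclear RNAs (snRNAs) that RNA polymerase II makes: RNU4-1 and RNU4-2 for U4, RNU5A-1, RNU5B-1, RNU5D-1 and RNU5E-1 for U5, RNU11, RNU12 and RNU4ATAC for the minor spliceosome, and RNU7-1 for U7. They were taken by name from tables of 67051 gene identifiers, and all 10 were present. Their nascent transcription was measured in SH-SY5Y, an established human neuroblastoma line, by PRO-seq, which sequences RNA extended in a run-on reaction by polymerases engaged in isolated nuclei. There were 3 groups of 2 libraries: cells with no treatment, cells given MPP+ at 0.1 mM for 0.5 h, and cells given MPP+ at 0.1 mM for 24 h. MPP+ is a neurotoxin that inhibits complex I of the respiratory chain, and apart from it the groups shared 1 line and 1 culture medium.

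Among these genes, 4 carried nearly all the counts, 1 carried 9 counts in all, and 5 were at 0 in every library. At 0.5 h both U4 genes lay above their untreated levels in both libraries, RNU4-1 by 1.52-fold and RNU4-2 by 1.3-fold, but neither passed the test over all genes. The U5 genes RNU5B-1 and RNU5D-1 stood at 1.08-fold and 1.19-fold. At 24 h RNU4-2, RNU5B-1 and RNU5D-1 were at 1.01, 0.901 and 1.03 times their untreated levels, and RNU4-1 was 1.3-fold higher with an interval that includes no difference. The 5 genes at 0 were those that lie wholly inside another annotated gene.

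U4 and U5 belong to the tri-snRNP, the complex of U4, U6 and U5 that joins a forming spliceosome. U4 holds U6 in an inactive pairing until the complex is activated, and a loop of U5 contacts the exon ends that are joined. At a small class of minor introns U4atac has the task of U4, and U11, U12, U6atac and the shared U5 act there with it. U7 is not a splicing RNA and guides the cut at the 3′ end of replication-dependent histone mRNAs. These genes have no introns and no poly(A) tail: polymerase II starts at a promoter bound by the SNAPc complex, the little elongation complex accompanies it, and the Integrator complex cuts the 3′ end. The new RNA is exported, receives a ring of Sm proteins in the cytoplasm and returns to the nucleus.

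The U4 sequences are shown because the genes are near copies of each other, so that short reads could be placed on either copy. They are the GENCODE 29 transcripts, written as DNA from 5′ to 3′ (GRCh38). In the U4 pair the capitals mark the bases that differ.
RNU4-1: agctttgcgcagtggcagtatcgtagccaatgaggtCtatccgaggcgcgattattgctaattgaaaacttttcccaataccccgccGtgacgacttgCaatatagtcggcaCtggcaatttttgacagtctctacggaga
RNU4-2: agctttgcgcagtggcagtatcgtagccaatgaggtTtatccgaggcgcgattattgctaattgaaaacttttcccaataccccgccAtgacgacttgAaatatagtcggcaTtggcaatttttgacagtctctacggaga
Counted from 1 at the 5′ end, with the base of RNU4-2 first, the differences are T37C, A88G, A99C and T113C. The U4 genes were identical at 137 of 141 bases (97.2%), and their longest identical stretch was 50 bases.

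The U5 genes are compared by identity. RNU5A-1 and RNU5B-1 were 94.0% identical with 7 differences, and the longest stretch they share was 58 bases. RNU5B-1 and RNU5D-1, the U5 genes with counts, were 81.9% identical, with a shared stretch of 44 bases.

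RNU11, RNU4ATAC and RNU7-1 are set side by side for their Sm-binding letters, in capitals.
RNU11: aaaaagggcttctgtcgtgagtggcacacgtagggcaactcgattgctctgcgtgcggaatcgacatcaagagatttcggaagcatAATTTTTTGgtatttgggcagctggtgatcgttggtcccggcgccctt
RNU4ATAC: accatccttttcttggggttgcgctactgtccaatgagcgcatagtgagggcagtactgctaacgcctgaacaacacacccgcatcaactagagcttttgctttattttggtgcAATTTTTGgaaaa
RNU7-1: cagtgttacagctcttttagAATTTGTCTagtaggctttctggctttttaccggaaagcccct
On the transcript strand, the only one searched, AATTTTTG was found in RNU4-1, RNU4-2, RNU12 and RNU4ATAC and in 3.68% of the 1900 snRNA transcripts, and AATTTTTTG in RNU11 and the 4 U5 genes and in 1.0%. RNU7-1 alone among the 10 held AATTTGTCT, the start of the noncanonical site that takes the U7-specific Lsm10 and Lsm11 in place of Sm D1 and D2, which 5.32% of the transcripts share. RNU4-2 and RNU4ATAC, which do the same task in the major and minor spliceosome, were 53.3% identical over their alignment.

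Assigned counts per library ran from 5983066 to 11707612, and a count of 0 allows up to 3 assigned counts, or 0.256 to 0.501 CPM (counts scaled to a library of fixed size). Whether the libraries of a group are separate cultures is not stated in the labels. The p-values therefore reflect library-to-library spread, which may be technical, and intervals of shares and floors cover counting error only. In these bulk libraries fewer cells of a type and less RNA per cell cannot be told apart. Of 12 adrenergic neuroblast markers 11 had a mean of at least 1 CPM, and the exception was TH, the enzyme that starts catecholamine synthesis. Their summed level was 3480 to 4170 CPM in untreated, 3460 to 4030 CPM in 0.5 h and 3080 to 3860 CPM in 24 h libraries. Of 20 markers of other cell types 14 reached that mean, led by TWIST1 at 1440 CPM, a gene that neuroblastoma cells also express. KRT5 and SOX10 were among the markers at 0, and whether those at 0 lie inside another gene was not checked. The summed level of these 20 was 1510 to 2000, 1520 to 1970 and 1380 to 1710 CPM, and their part in the results was not tested.

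The 10 genes held 9751 counts over all libraries. RNU4-2 had 35.7% of them, RNU5B-1 32.9%, RNU4-1 17.6%, RNU5D-1 13.8% and RNU11 0.0923%. Together they took 0.0184% (exact Clopper-Pearson 95% interval 0.0174% to 0.0194%) and 0.0168% (0.016% to 0.0177%) of the assigned counts in the untreated libraries, 0.0227% (0.0219% to 0.0236%) and 0.02% (0.0191% to 0.021%) at 0.5 h, and 0.019% (0.0181% to 0.0199%) and 0.0169% (0.0158% to 0.0179%) at 24 h. The 0.5 h libraries were the highest, and the 24 h and untreated libraries overlapped.

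Position separated the counted genes from the others. RNU4-1 (chromosome 12, 120293097 to 120293237, minus strand) and RNU4-2 (chromosome 12, 120291763 to 120291903, minus strand) lie 1194 bases apart with no other annotated gene over them. RNU5B-1 (chromosome 15, 65304677 to 65304792, plus strand) and RNU5D-1 (chromosome 1, 44731055 to 44731170, minus strand) also overlap no other GENCODE 29 gene. These 4 had 1345 to 3478 counts each over the 6 libraries.

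RNU5A-1 (chromosome 15, 65296051 to 65296166, plus strand) lies in an intron of PARP16, a mono-ADP-ribosyltransferase gene on the opposite strand, and had 0 counts. Of the genes at 0 it is the most like a counted one, RNU5B-1. PARP16 itself was well covered, at 124 ± 10.2 CPM (mean and SD, n = 2) in untreated, 129 ± 6.02 at 0.5 h and 141 ± 2.92 at 24 h.

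RNU5E-1 (chromosome 1, 11908152 to 11908271, plus strand) lies in an exon of the lincRNA gene AL021155.2, which starts 5 bases before it on the same strand and is 5086 bases long. RNU5E-1 was at 0 while AL021155.2 held 938 and 996 counts in the untreated libraries, 1429 and 1151 at 0.5 h and 1100 and 927 at 24 h. The nearby RNU5E-4P, annotated 1537 bases further on the opposite strand, starts within the span of AL021155.2 and was also at 0.

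RNU11 (chromosome 1, 28648600 to 28648733, plus strand), which pairs with the 5′ splice site of minor introns, shares its start and all but its last 3 bases with the lincRNA entry AL360012.1. Its counts were 0 and 1 in untreated, 5 and 0 at 0.5 h and 3 and 0 at 24 h, and AL360012.1 was at 0 in all 6 libraries. Only the 0.5 h replicate 1 library exceeded the floor of 3 counts, and RNU11 was not tested. LINC01715, which the gene name table calls TAF12-DT and which ends 19 bases before RNU11 on the same strand, was at 29.7 ± 2.98 CPM in untreated, 35.1 ± 2.99 at 0.5 h and 30.0 ± 2.08 at 24 h (n = 2 each).

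RNU12 (chromosome 22, 42615244 to 42615393, plus strand) codes for the RNA that pairs with the branch site of minor introns. It starts at the same base and on the same strand as the 664-base lincRNA gene Z93241.1, and had 0 counts. Z93241.1 held 178 and 188 counts in untreated, 342 and 221 at 0.5 h and 226 and 172 at 24 h, or 23.9 ± 2.58, 27.8 ± 3.33 and 27.3 ± 0.815 CPM (n = 2 each). Which of its 664 bases the reads covered is not given in the tables, and 514 of them lie outside RNU12.

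RNU4ATAC (chromosome 2, 121530881 to 121531007, plus strand) sits in introns of CLASP1, a microtubule-binding protein gene on the opposite strand, and of AC012447.1 on its own strand. RNU4ATAC and AC012447.1 were at 0 in all libraries, and CLASP1 was at 285 ± 9.51, 277 ± 1.13 and 293 ± 13.6 CPM in untreated, 0.5 h and 24 h libraries (n = 2 each).

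RNU7-1 (chromosome 12, 6943816 to 6943878, plus strand), the shortest of the 10 at 63 bases, lies within an exon of C12orf57 on its own strand and of U47924.2 on the other. RNU7-1 and U47924.2 were at 0. C12orf57 was at 49.1 and 40.5 CPM in untreated, 35.1 and 33.6 at 0.5 h and 43.6 and 46.8 at 24 h. Both 0.5 h libraries were below all others, by a log2 fold change of -0.38 ± 0.13 (SE) against untreated, with an adjusted p of 1.0 from edgeR's quasi-likelihood test. Of the overlapping genes named here, none passed the test in any comparison.

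**Figure D1:**
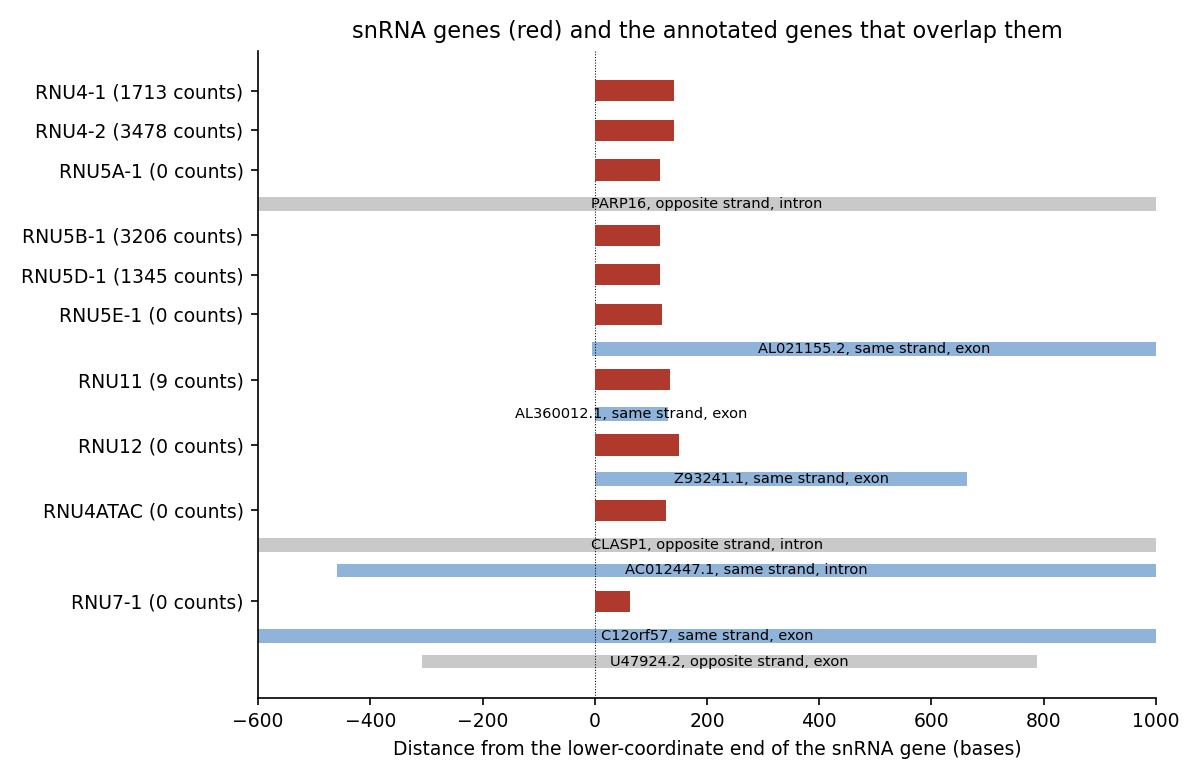
Each red bar is 1 of the 10 snRNA genes, with its summed counts over 6 libraries on the vertical axis label, and blue (same strand) or grey (opposite strand) bars are the annotated genes over it; the horizontal axis is the distance in bases from the lower-coordinate end of the snRNA gene, and bars are clipped at the edges. The 4 genes with 1345 or more counts have no bar under them, and the 5 genes at 0 each lie within at least 1 other gene.

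The same held for annotated snRNA genes as a class, most of which are copies and pseudogenes. Of 1909 such genes in the tables, 1148 lie wholly inside another gene, and all 1148 had 0 counts in every library. Among the 755 that overlap nothing, 387 had counts (51.3%) and 368 were at 0. This held on either strand: 573 of 573 were at 0 inside genes of the same strand only, 490 of 490 inside genes of the opposite strand only, and 85 of 85 inside genes on both. The 477 genes that lie within an intron of an opposite-strand gene, as RNU5A-1 does, were among them. The 6 genes that overlap another in part, RNU11 included, all had counts, at most 34.

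Among all 12073 annotated genes of up to 400 bases, 7143 of the 7156 inside another gene were at 0 (99.8%), against 2313 of the 4798 that overlap nothing (48.2%). By default featureCounts, the counting program, assigns no read that overlaps counted features of more than 1 gene. No source used here gives the settings of the authors, so whether introns and both strands were among the counted features is not known. Whether that step set the zeros of RNU5A-1, RNU5E-1, RNU12, RNU4ATAC and RNU7-1 was not tested, and for these genes a 0 gives no upper limit on transcription.

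**Figure D2:**
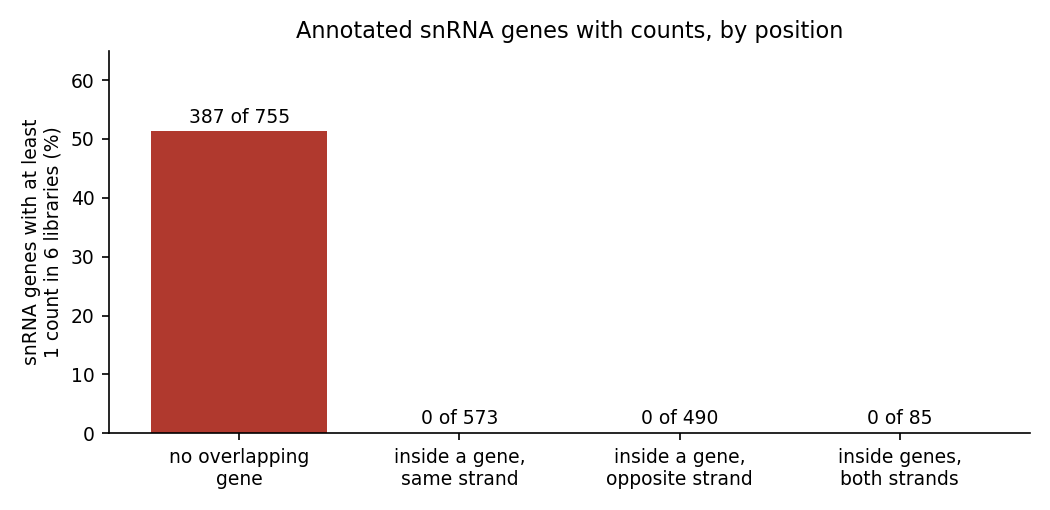
Bars give the percentage of annotated snRNA genes with at least 1 count in the 6 libraries, by whether and on which strand they lie inside another gene; the numbers above are genes with counts of all genes in the class. Counts were present for 387 of 755 genes without an overlapping gene and for 0 of 1148 genes inside another.

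Levels of the counted genes can be compared per length. In untreated cells RNU5B-1 had 549 ± 129 CPM per kilobase (mean and SD, n = 2, libraries 458 to 641), RNU4-2 438 ± 13.5 (428 to 447), RNU5D-1 212 ± 2.84 (210 to 214) and RNU4-1 185 ± 10.6 (177 to 192). No neighbours in this order overlapped between libraries, but the means of RNU5B-1 and RNU4-2 differed by less than the SD of RNU5B-1. Among 22341 tested genes with a known length, 10 had a higher untreated level per kilobase than RNU5B-1, 23 than RNU4-2, 67 than RNU5D-1 and 75 than RNU4-1, and the median gene had 0.759. Length was the whole annotated gene, introns included, and only genes that passed the filter on low counts were ranked. A short gene that passes this filter has a high level per kilobase because it is short. These ranks are therefore set in part by length and filter.

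At 0.5 h the order was RNU5B-1 (591 ± 72.2 CPM per kilobase), RNU4-2 (567 ± 45.3), RNU4-1 (280 ± 44.5) and RNU5D-1 (253 ± 21.8), and at 24 h it was RNU5B-1 (491 ± 81), RNU4-2 (441 ± 17.3), RNU4-1 (239 ± 56.4) and RNU5D-1 (218 ± 3.57), each with n = 2. At both times the first and second overlapped, as did the third and the fourth, and the upper pair lay above the lower pair in every library.

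The comparison of 0.5 h with untreated cells asks what changed early after MPP+. RNU4-1 had 173 and 231 counts in untreated libraries and 499 and 305 at 0.5 h, which after TMM scaling is 25.0 and 27.1 CPM against 43.9 and 35.1 CPM. Both 0.5 h libraries were above both untreated ones. The log2 fold change was 0.60 ± 0.18 (SE; 95% interval 0.19 to 1.01), with an unadjusted p of 0.00867 and an adjusted p of 1.0 in edgeR's quasi-likelihood test over 23133 genes.

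RNU4-2 had 437 and 515 counts in untreated libraries and 959 and 656 at 0.5 h, or 63.1 and 60.4 CPM against 84.5 and 75.4 CPM. Here too the groups did not overlap, and the log2 fold change was 0.37 ± 0.10 (0.14 to 0.61), with an unadjusted p of 0.00492 and an adjusted p of 1.0 in the same test. The summed U4 level was 88.1 and 87.5 CPM in untreated libraries and 128 and 110 CPM at 0.5 h.

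RNU5B-1 was at 74.3 and 53.1 CPM in untreated libraries and at 74.5 and 62.7 CPM at 0.5 h, so the groups overlapped. Its log2 fold change was 0.11 ± 0.17 (-0.28 to 0.50; adjusted p of 1.0, edgeR). The untreated libraries differed from each other by 1.4-fold, more than the difference between the groups, and without untreated replicate 2 the value was -0.12. RNU5D-1 was at 24.4 and 24.9 CPM against 31.2 and 27.6 CPM. Its groups did not overlap, and the log2 fold change was 0.26 ± 0.14 (-0.05 to 0.57; unadjusted p of 0.0946, adjusted p of 1.0, edgeR).

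Of the 4 genes tested at 0.5 h, 0 passed the threshold, where 0.0735% of all tested genes did, and 2 had an unadjusted p under 0.05, where 2.46% of all genes did. These 2 were RNU4-1 and RNU4-2, near copies at 97.2% identity, so they are not independent genes in this or the following counts. With the genes of mitochondrial DNA left out, 0 genes of the table passed edgeR's test at 0.5 h. DESeq2 also called 0 of the 4 snRNA genes. The groups did not overlap in 3, all higher at 0.5 h, where 12.9% of all tested genes were higher without overlap. All 4 had a value above 0, with a median of 0.32 on the log2 scale against 0.01 over all tested genes. The 6 other genes did not pass the filter on low counts and are not part of these numbers.

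**Figure D3:**
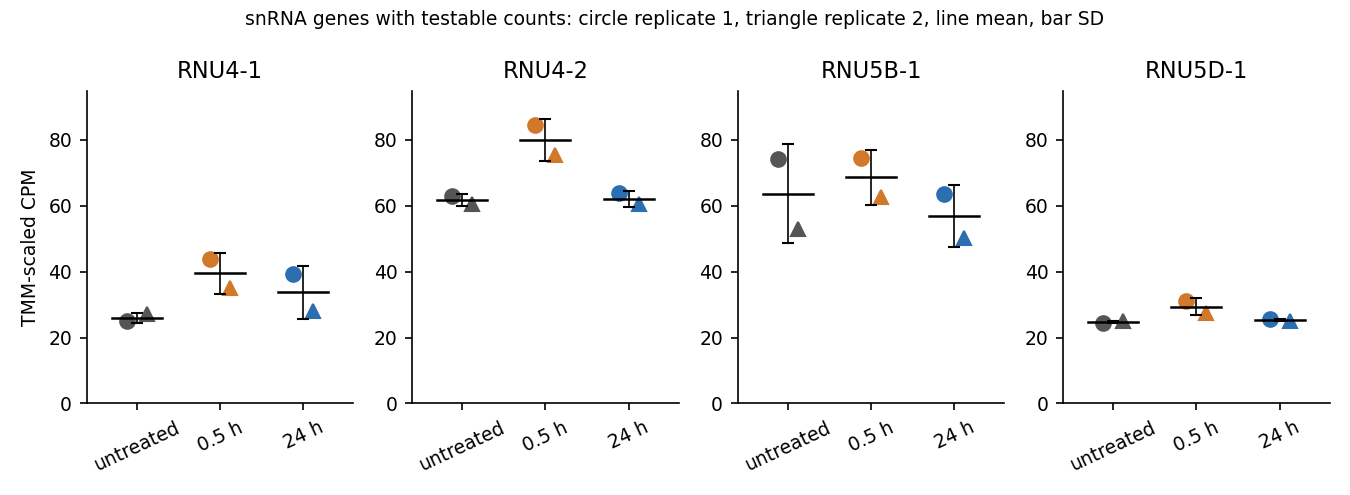
Each panel gives the TMM-scaled CPM of 1 gene on the vertical axis by group, with replicate 1 as a circle, replicate 2 as a triangle, the mean as a line and the SD as a bar (n = 2). RNU4-1, RNU4-2 and RNU5D-1 are higher in both 0.5 h libraries than in both untreated ones, and the libraries of RNU5B-1 overlap between groups.

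The comparison of 24 h with untreated cells asks what a long exposure left. RNU4-1 had 332 and 173 counts at 24 h, or 39.3 and 28.1 CPM, against 25.0 and 27.1 CPM in untreated libraries. The second 24 h library was just above the untreated range and the first well above it. The log2 fold change was 0.38 ± 0.19 (-0.04 to 0.80; unadjusted p of 0.071, adjusted p of 0.658, edgeR), and without 24 h replicate 1 it was 0.11.

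RNU4-2 was at 63.8 and 60.4 CPM at 24 h (539 and 372 counts), against 63.1 and 60.4 CPM in untreated libraries. The groups overlapped, and the log2 fold change was 0.01 ± 0.10 (-0.22 to 0.25; adjusted p of 0.989, edgeR). RNU5B-1 was at 63.6 and 50.3 CPM (-0.15 ± 0.18, interval -0.55 to 0.25; adjusted p of 0.879). Its libraries overlapped the untreated ones, and without untreated replicate 1 the value was 0.11. RNU5D-1 was at 25.6 and 25.0 CPM, a little above 24.4 and 24.9 CPM in untreated cells (0.04 ± 0.14, interval -0.28 to 0.36; adjusted p of 0.972).

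At 24 h 0 of the 4 genes passed the threshold, where 0.0692% of all tested genes did, and 0 had an unadjusted p under 0.05, where 8.1% of all genes did. DESeq2 likewise called 0 of the 4. With the genes of mitochondrial DNA left out, 0 genes of the table passed edgeR's test at 24 h. Groups did not overlap in 2 genes, RNU4-1 and RNU5D-1, both higher, against 18.8% of all tested genes. A value above 0 was found for 3 genes and below 0 for RNU5B-1, and the median was 0.02 against 0.00 over all tested genes.

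Set directly against each other, the mean at 24 h was lower than the mean at 0.5 h for all 4 genes. RNU4-2 had the smallest p: its 2 libraries at 24 h were below both at 0.5 h, with a log2 fold change of -0.36 ± 0.10 (-0.59 to -0.13; unadjusted p of 0.00592, adjusted p of 0.754, edgeR). With the replicate number as a block it passed, at -0.36 ± 0.09 with an adjusted p of 0.0337, though the labels tie the numbers to no shared culture or day. RNU5D-1 was lower without overlap as well, by -0.22 ± 0.14 (-0.53 to 0.09; adjusted p of 0.81). RNU4-1 (-0.22 ± 0.18) and RNU5B-1 (-0.26 ± 0.17) overlapped between the times. Without 24 h replicate 1 their values were -0.50 and -0.45, and without 24 h replicate 2 they were -0.01 and -0.11.

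With the filter on low counts and without that block, no gene passed edgeR's test in this comparison (0.0%), the 4 snRNA genes included. DESeq2 called none either. With the block edgeR called 116 genes higher and 296 lower. With no filter on low counts and no block it called 29 higher and 44 lower, 0 of them snRNA genes described here. In the fit with the filter and without the block, 1 of the 4 had an unadjusted p under 0.05, against 6.42% of all genes. Lower values without overlap were found in 2 of the 4, against 19.0% of all tested genes, and the median was -0.24 against 0.00. This comparison and the first share the 0.5 h libraries, and both comparisons with untreated cells share the untreated libraries.

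**Figure D4:**
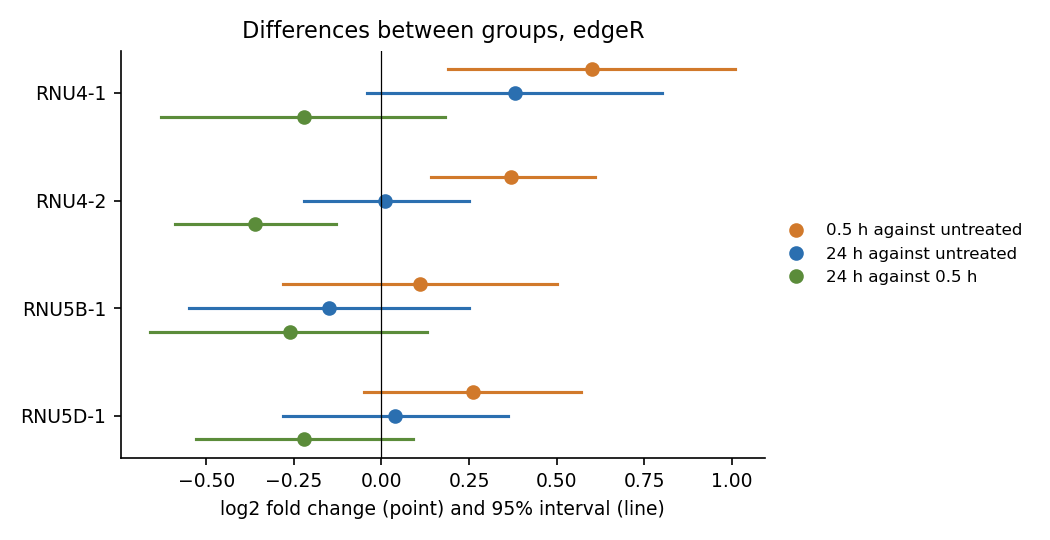
Points are log2 fold changes from edgeR and lines their 95% intervals on the horizontal axis, for the 4 tested snRNA genes and the 3 comparisons, with 0 as the vertical line. The intervals of RNU4-1 and RNU4-2 at 0.5 h lie above 0 and that of RNU4-2 at 24 h against 0.5 h below 0, and the others include 0.

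The split of U4 counts between its genes was followed per library, since 4 bases tell them apart. RNU4-1 held 28.4% (exact Clopper-Pearson 95% interval 24.8% to 32.1%) and 31.0% (27.7% to 34.4%) of the U4 counts in untreated libraries, 34.2% (31.8% to 36.7%) and 31.7% (28.8% to 34.8%) at 0.5 h, and 38.1% (34.9% to 41.4%) and 31.7% (27.9% to 35.8%) at 24 h. Both exposed groups were above the untreated ones, with group means of 29.7% ± 1.84, 33.0% ± 1.76 and 34.9% ± 4.51 (SD, n = 2). The second library of each exposed group, at 31.7%, and the first 0.5 h library, at 34.2%, lay inside the interval of the untreated library at 31.0%. Only the first 24 h library, at 38.1%, lay above that interval. Reads that fall in the stretches the U4 genes share cannot be told apart, and no source used here gives how the authors placed them.

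RNU5D-1 held 24.7% and 31.9% of the counts of RNU5B-1 and RNU5D-1 together in untreated libraries, 29.5% and 30.6% at 0.5 h, and 28.7% and 33.2% at 24 h. The untreated libraries spanned the 0.5 h ones, and no shift between these U5 genes exceeded the spread between replicates.

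**Figure D5:**
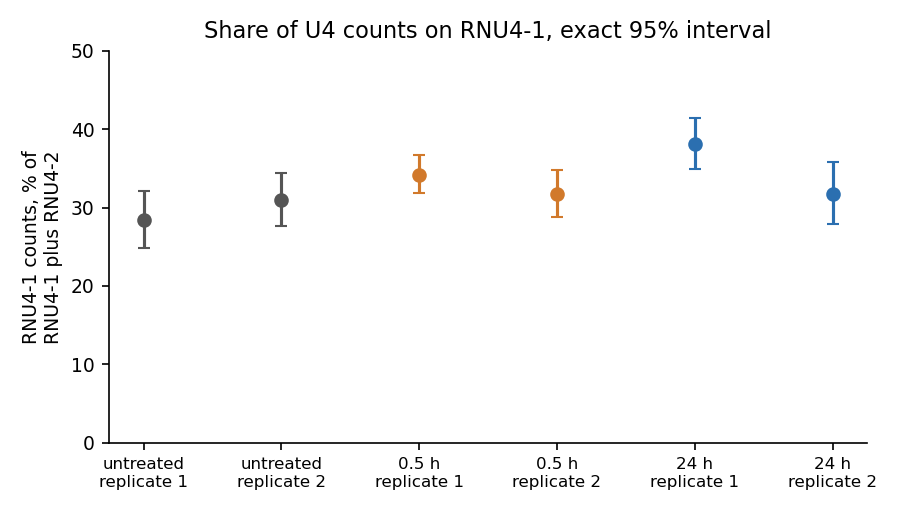
The vertical axis gives RNU4-1 counts as a percentage of RNU4-1 plus RNU4-2 counts in each of the 6 libraries, with exact 95% intervals for counting error. The untreated libraries are at 28.4% and 31.0%, and the exposed libraries run from 31.7% to 38.1%.

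Replicates of a group were compared by the CPM of replicate 1 over that of replicate 2. For RNU5B-1 the ratio was 1.4 in untreated, 1.19 at 0.5 h and 1.26 at 24 h libraries. For RNU4-2 the ratios were 1.04, 1.12 and 1.06, and for RNU5D-1 0.981, 1.13 and 1.02. RNU4-1 had 0.922, 1.25 and 1.4.

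Of the neighbouring genes within 10 kb, none passed edgeR's test in any comparison. SIRT4, 9079 bases from RNU4-1 on the other strand, was at 9.76 ± 2.78, 9.21 ± 0.951 and 11.7 ± 2.1 CPM in untreated, 0.5 h and 24 h libraries (n = 2 each), while NME2P1 beyond RNU4-2 held at most 8 counts in a library. The pseudogene AC105129.2, 2366 bases from RNU5B-1, held at most 7. Beside RNU5D-1, KIF2C was at 27.8 ± 1.78, 27.4 ± 0.512 and 25.0 ± 0.957 CPM and ARMH1 at 28.7 ± 5.23, 30.8 ± 1.22 and 33.2 ± 3.36 CPM. POLDIP3 and CYB5R3 lie beside RNU12 and ATN1 and PTPN6 beside RNU7-1, and among these 4 only POLDIP3 had an interval that excludes 0, at -0.33 ± 0.11 (-0.58 to -0.07) for 24 h against 0.5 h.

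Over the 6 libraries, the mean centred log2 CPM of the 4 counted genes was compared with that of 22885 other genes. The closest were C16orf78 (r = 0.987), the lincRNA gene ENSG00000225807 (0.986), CCNE2 (0.978), the pseudogene ENSG00000236391 (0.978) and P2RX3 (0.974), as a description over 6 libraries. Depth differed between libraries, from 5983066 assigned counts in 24 h replicate 2 to 11707612 in 0.5 h replicate 1. The mean of the 4 genes was lowest (-0.19) and highest (0.32) in these same libraries, and a part of depth was not tested. CCNE2, a cyclin of the G1 to S step, ran at 44.2 and 39.2 CPM in untreated, 59.4 and 46.3 at 0.5 h and 47.0 and 40.4 at 24 h. An r above 0.9 was reached by 110 genes (0.481%).

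The other snRNA-type genes of polymerase II on the list were those for U1, U2, U3, U8 and U13 and further copies, of which 33 of 34 were in the tables and 17 were tested. None passed edgeR's test or DESeq2 in any comparison, and 1, 1 and 6 had an unadjusted p under 0.05 in edgeR at 0.5 h, at 24 h and for 24 h against 0.5 h. Over all tested genes 2.46%, 8.1% and 6.42% were under that p. The median log2 fold change of the 17 was -0.06 at 0.5 h, -0.30 at 24 h and -0.35 for 24 h against 0.5 h, with 17 of 17 below 0 in both comparisons of 24 h libraries. All 12 tested U1 genes, whose RNA pairs with the 5′ splice site, were below 0 at 24 h (-0.76 to -0.07), with RNVU1-15 at -0.58 ± 0.20 (unadjusted p of 0.0161, adjusted p of 0.574, edgeR). Replicate 1 was above replicate 2 in 11 of 12 U1 genes in untreated libraries (ratios of 0.968 to 2.78) and in 11 of 12 at 24 h (0.814 to 1.93). RNU1-1 was at 106 and 65.3 CPM in untreated and at 90.0 and 55.8 CPM at 24 h, so the groups overlapped. U1 genes are near copies of each other, so their counts are not independent.

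The 4 tested U3 genes, whose RNA works in ribosomal RNA processing, lay at 0.26 to 0.34 at 0.5 h and at -0.42 to -0.35 for 24 h against 0.5 h, on the same side of 0 as the U4 genes in both. The U1 genes were not on that side at 0.5 h, where 10 of 12 were below 0 and 2 above (-0.58 to 0.36). SNORD3B-1 had the highest log2 fold change of the U3 genes at 0.5 h, with 328 ± 39.7 CPM in untreated and 415 ± 19.6 CPM at 0.5 h (n = 2; 0.34 ± 0.13, adjusted p of 1.0, edgeR). Of the 33 genes, 14 lie inside another gene and 13 of these were at 0, RNU2-1 and RNU2-2P among them, the exception being SNORD13. A further 14 overlap no other gene, and 2 of these were also at 0. U1 and U3 copies cannot be assigned with certainty.

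The partners of U4 and U4atac, U6 and U6atac, are made by polymerase III. A list of 9 polymerase III genes held these and RN7SK, RMRP and RPPH1. Of the 9, 5 were tested, all of them for U6 or U6atac, and none passed edgeR's test or DESeq2 in any comparison. In edgeR 0, 2 and 0 had an unadjusted p under 0.05, against 2.46%, 8.1% and 6.42% of all tested genes. The median was 0.41 at 0.5 h, 0.84 at 24 h and 0.46 between the times. The tested U6 genes code for the same RNA and held only 88 to 173 counts each over all 6 libraries. Whether their reads can be told apart was not tested. RNU6ATAC was at 3.42 ± 0.14 CPM in untreated, 4.54 ± 2.68 at 0.5 h and 7.34 ± 3.03 at 24 h (n = 2 each), a log2 fold change of 1.12 ± 0.44 at 24 h (unadjusted p of 0.0288, adjusted p of 0.595, edgeR). RNU6-9 was at 1.32 ± 0.376, 2.1 ± 0.112 and 2.71 ± 1.53 CPM. Replicate 1 was at 9.48 CPM and replicate 2 at 5.2 CPM for RNU6ATAC at 24 h, and for RNU6-9 they were at 3.79 and 1.62 CPM.

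Genes for the proteins that make and use snRNAs were read as 8 lists, and none of their members passed edgeR's test or DESeq2 in any comparison. Their counts at an unadjusted p under 0.05 in edgeR are given below for 0.5 h and 24 h against untreated, with list medians on the log2 scale in the same order. Over all tested genes 2.46% were under that p at 0.5 h and 8.1% at 24 h, and no list was tested against these shares. All 17 promoter factors were tested, with medians of 0.04 and 0.02 and 1 and 2 genes under that p. The gene with the smallest p was SNAPC4, the largest SNAPc subunit, at 110 ± 15.5 CPM in untreated, 88.8 ± 0.275 at 0.5 h and 77.4 ± 3.54 at 24 h (n = 2 each). At 24 h its log2 fold change was -0.51 ± 0.12 (unadjusted p of 0.00165, adjusted p of 0.383, edgeR). GTF2B, the general factor TFIIB, was at 0.32 ± 0.12 (adjusted p of 0.589).

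For the little elongation complex and its partners 8 of 9 genes were tested, with medians of 0.08 and 0.05 and 0 and 2 genes under that p. EAF2, a partner of ELL, was at 15.2 ± 0.516 CPM in untreated and 24.1 ± 0.582 at 24 h (n = 2; 0.66 ± 0.20, adjusted p of 0.548, edgeR), and ELL at -0.30 ± 0.13 (adjusted p of 0.611). Integrator had all 19 genes tested, with medians of 0.01 and -0.06 and 0 and 4 genes under that p. INTS1 was at -0.43 ± 0.12 at 24 h (adjusted p of 0.528) and INTS7 at -0.36 ± 0.11 (adjusted p of 0.553).

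Assembly genes showed no call either. Of 19 genes for export and for the SMN complex, which loads Sm proteins, 18 were tested, with medians of 0.06 and 0.00 and 0 genes under that p at both times. PHAX, the export adaptor, was at -0.25 ± 0.12 at 24 h (adjusted p of 0.627, edgeR). The 8 Sm core genes had medians of 0.02 and -0.20 and 0 and 2 genes under that p, SNRPF at -0.43 ± 0.15 and SNRPB at -0.42 ± 0.16 at 24 h (adjusted p of 0.574 and 0.595).

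The 19 genes for tri-snRNP proteins had a median of 0.03 at 0.5 h and -0.18 at 24 h, where 16 of 19 were below 0, with 0 and 2 genes under that p. CD2BP2, a U5 snRNP protein, was at 34.1 ± 0.31 CPM in untreated and 24.8 ± 1.02 at 24 h (n = 2; -0.47 ± 0.14, adjusted p of 0.537, edgeR). PRPF4, a U4/U6 snRNP protein, was at -0.36 ± 0.11 for 24 h against 0.5 h (adjusted p of 0.754).

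For the minor spliceosome 13 of 14 protein genes were tested, with medians of 0.01 and -0.03 and 1 and 0 genes under that p. PDCD7, a protein of the U11/U12 particle, was at 36.4 ± 1.08 CPM in untreated and 55.1 ± 21.9 at 0.5 h (n = 2; 0.61 ± 0.23, adjusted p of 1.0, edgeR). The 11 genes for the U7 particle and histone 3′ ends had medians of -0.03 and -0.08 and 0 and 1 genes under that p, the latter SYMPK, a scaffold of the cleavage complex, at -0.26 ± 0.10 at 24 h (adjusted p of 0.595). Over all tested genes the median was 0.01 at 0.5 h and 0.00 at 24 h.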

How the data were processed

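PRO-seq libraries of SH-SY5Y cells (3 groups of 2) were analysed from raw counts per gene that the authors deposited, 1 table per library. The submitters' processing notes name the build hg38, featureCounts 2.0.1 for counting, Bowtie2 2.4.2 and the trimmer cutadapt 1.16.5, beside DESeq2 2.11.40.6. No source used here gives the strand, feature or multimapping settings or the annotation release. The authors' deposited tables of called genes hold, per the file headers, a base mean (a signal), log2 fold changes, a test statistic (a score), p-values and other columns of gene positions. They list 17 genes at 0.5 h and 24 at 24 h, 0 of them snRNA genes described here.

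Of 67051 identifiers, 60437 took a symbol from a gene name table, 257 took one from GENCODE 29, and 58464 were placed on GENCODE 29. All 10 snRNA genes matched it in identifier and version. Genes were filtered with filterByExpr (23133 kept), scaled by TMM and tested by quasi-likelihood in edgeR 4.0.16 (R 4.3.3), with all 6 libraries in 1 fit, with 3 residual degrees of freedom, a common biological coefficient of variation of 0.113, and Benjamini-Hochberg adjustment over all tested genes at 0.05. The fit was tested on simulated data. DESeq2 1.42.0, other scalings, other filters and left-out libraries were alternatives.

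The snRNA genes and gene lists were chosen with earlier results of these data known. Named genes were the 10 snRNA genes, the overlapping genes and nearest neighbours within 10 kb, the 5 most alike in pattern, and up to 3 genes of smallest p per list and comparison. Not every gene the rule takes is named. The U5 sequences and some marker genes are not reported here.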

Additional observations from a re-analysis of the deposited data

How the results depend on the processing

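Over the alternative scalings, filters, tests, sample sets and left-out libraries, the 12 log2 fold changes of the tested snRNA genes kept their direction and their side of the threshold in 162 of 168 refits. In 5 refits, all of which left out a library, a value near 0 changed sign. RNU5B-1 at 0.5 h (0.11) became -0.12 without untreated replicate 2 and -0.02 without 0.5 h replicate 1, RNU4-2 at 24 h (0.01) became -0.03 without untreated replicate 2 and -0.03 without 24 h replicate 1, and RNU5B-1 at 24 h (-0.15) became 0.11 without untreated replicate 1. Over the left-out libraries these 3 values ranged from -0.12 to 0.37, from -0.03 to 0.05 and from -0.39 to 0.11. Over all refits RNU4-1 at 0.5 h ranged from 0.43 to 0.75 and RNU4-2 from 0.29 to 0.45. With the replicate number as a block, 1 snRNA gene passed at 24 h against 0.5 h, RNU4-2 at -0.36 ± 0.09 with an adjusted p of 0.0337, and over all genes the block gave 116 higher and 296 lower in place of 0 and 0. At 0.5 h the block gave 15 higher and 42 lower genes, in place of 0 and 17, and RNU4-1 and RNU4-2 had adjusted p of 0.0803 and 0.0889. At 24 h it gave 301 higher and 384 lower genes, in place of 0 and 16, with 0 snRNA genes. Same-numbered libraries deviated together across genes (correlations of 0.28 to 0.314), but the labels tie the numbers to no shared culture or day. The filter also changed the calls over all genes. Without it and without the block, edgeR called 20 higher and 46 lower at 0.5 h and 130 and 115 at 24 h. For 24 h against 0.5 h it called 29 and 44, with 0 snRNA genes in each comparison. With the genes of mitochondrial DNA left out, 0 genes were called in each comparison. Without RNU4-2, the summed share of the snRNA genes was 0.0114% in untreated, 0.0135% at 0.5 h and 0.0117% at 24 h, since that gene holds the most counts. With the U4 genes summed into 1 row and RNU5B-1 and RNU5D-1 into another, chosen after seeing the data, 0 rows passed in the 3 comparisons. For the tested genes, at 154 to 959 counts per library, the spread between 2 libraries limits the precision. The 6 other genes had too few assigned counts to test, which for the 5 at 0 sets no upper limit on transcription.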
